A study of Mus musculus with 6 samples.

Results

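The 9 genes described here encode complement components and complement receptors: the C1q chains C1qa, C1qb and C1qc, the protease C1ra, the central component C3, the classical component C4b, the alternative pathway protease Cfb, and the anaphylatoxin receptors C3ar1 and C5ar1. They were chosen by symbol from the 17830 genes of the deposited count table, and all 9 were found there and passed the filter on low counts, as did 13484 genes in all. The libraries came from cells labelled as osteoblasts, grown out of skull bone fragments of mice aged 6 months and then sorted for the red reporter tdTomato. Control mice carried mOCN-Cre and Ai9, and APPswe mice carried TgAPPswe together with mOCN-Cre and Ai9, with 3 libraries of each genotype. In mOCN-Cre the Cre recombinase is joined to the end of the mouse osteocalcin gene Bglap, and Ai9 makes tdTomato once Cre has acted, so that both groups share the Cre and the reporter. TgAPPswe is a human APP transgene with the Swedish mutations behind the CAG promoter and a loxP-flanked stop, which Cre removes. The labels do not say whether the libraries of a genotype came from separate animals or cultures, so that p-values measure the spread between these libraries, which may be technical in part.

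Complement is a cascade of plasma and tissue proteins that tags particles for uptake, attracts leukocytes and can lyse membranes. C1q binds antibody or other ligands and, with the proteases C1r and C1s, starts the classical pathway through C4 and C2, whereas factor B drives the alternative pathway, and both pathways lead to cleavage of C3. The fragments C3a and C5a act on C3ar1 and C5ar1, receptors found mainly on myeloid cells. Macrophages are a main source of C1q, and stromal cells and osteoblasts can make C3, C1r, C1s and C4.

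The control libraries 1, 2 and 3 held 17649704, 18134411 and 18398392 counts, and the APPswe libraries 1, 2 and 3 held 17263757, 17555489 and 17483141. Levels of a gene across libraries are given as CPM, its counts scaled to a common library total with TMM factors, on which 3 counts correspond to between 0.167 and 0.173 CPM, a floor that covers counting error only. Levels of different genes are set side by side in FPKM, which the authors computed per transcript length. Differences between genotypes are log2 fold changes of APPswe against control from the quasi-likelihood fit of edgeR over all genes, with their standard errors (SE) and with p-values adjusted over all genes tested by the Benjamini-Hochberg method. A gene is said to have fallen or risen where its adjusted p was at most 0.05, and is said to be called where its absolute log2 fold change was also at least 1.

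Control 2 stood apart from control 1 and 3. Its summed count over 4 Y-linked genes (Uty, Kdm5d, Ddx3y and Eif2s3y) was 2, where the other 5 libraries had 2257 to 3406. The study describes the mice of the sequencing experiment as male. The sources used here do not settle the identity of control 2, and control means and SDs over all libraries include it. The osteocalcin gene Bglap, whose locus drives the Cre, had 1 count in control 2, against 159 and 204 counts in control 1 and 3 and 115, 128 and 159 counts in APPswe 1, 2 and 3. Of the 12 osteoblast markers, Ibsp was at 0.169 CPM and Dmp1 at 0.112 CPM in control 2, at or under the floor, whereas the collagen genes Col1a1 (5702 CPM) and Col1a2 (5729 CPM) were as abundant there as in the other control libraries or more so. Results are therefore given with all 6 libraries and, for the members and the gene lists, also without control 2 where that changed which genes passed. None of the 4 Y-linked genes passed with all libraries, and all 4 were lower without control 2, where 25% of genes tested were lower. The libraries also carry names in 1 of 2 styles, with a hyphen (control 1, control 2 and APPswe 1) or without one (control 3, APPswe 2 and APPswe 3), and the FPKM columns of the 2 styles have 397 and 716 blank cells each. The name of control 2 ends in S where the names of the other libraries carry L, letters that the labels do not explain.

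The osteoblast label was set against marker lists. All 12 osteoblast markers were measured, with Col1a2 the most abundant, and their summed level was 8681, 11478 and 9735 CPM in control 1, 2 and 3 and 7949.7, 8743 and 8723 CPM in APPswe 1, 2 and 3. All 16 macrophage markers were measured as well, with lysozyme Lyz2 the most abundant, and they summed to 20244, 15675 and 21748 CPM in control and to 11246, 12027 and 12140.3 CPM in APPswe libraries. No osteoblast or macrophage marker was at 0 in a whole group. Of the 12 osteoblast markers 2 rose with all libraries, Sp7 and Runx2, and none fell, where 10.5% of all genes tested rose and 12% fell. Without control 2 4 of the markers rose and 5 fell, where 23.3% of all genes tested rose and 25% fell. Phex, among the markers that fell, passed the filter on low counts in that fit only through control libraries. Dmp1, at 15.1 and 14.3 CPM in control 1 and 3 and at 0.672, 0.891 and 0.786 CPM in APPswe libraries, was among those that fell only without control 2.

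The 9 members spanned a wide range of levels. In control libraries the order by mean FPKM was C1qb (2056 ± 475, SD, n = 3), C1qc (1919 ± 290.3), C1qa (1133 ± 155), C5ar1 (128 ± 16.2), C3ar1 (121 ± 3.00), C1ra (40.6 ± 15.9), C3 (27.2 ± 12.6), C4b (7.08 ± 5.60) and Cfb (5.74 ± 4.13). Of the neighbours in this order, C1qb and C1qc, C5ar1 and C3ar1, C1ra and C3, and C4b and Cfb differed by less than the larger of their SDs. In APPswe libraries the order was the same apart from the last places, where Cfb (5.35 ± 0.503 FPKM, SD, n = 3) stood above C4b (2.95 ± 0.0586 FPKM), and C1qb (1241 ± 32.0 FPKM) and C1qc (1218 ± 67.0 FPKM) were the only neighbours within an SD of each other. By mean FPKM over the 6 libraries C1qb ranked 60 and C1qc ranked 64 among all genes of the table, with C1qa at rank 120.

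**Figure D1:**
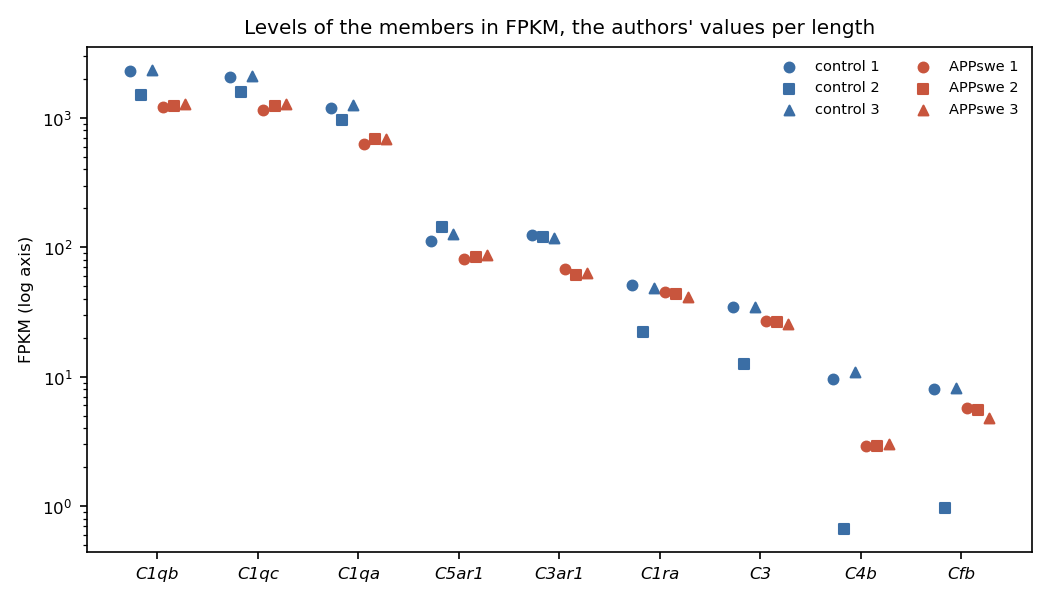
FPKM of the 9 members on a log axis in each library, with control in blue, APPswe in red and a marker shape for each library number. The C1q chains lie above all other members in every library, and control 2 (blue squares) lies lowest for C1ra, C3, C4b and Cfb.

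With all 6 libraries, 5 of the 9 members fell in APPswe libraries and none rose, against 12% of all genes tested that fell and 10.5% that rose. The 5 were C1qa, C1qb, C1qc, C3ar1 and C5ar1, and in each of them the highest APPswe library was below the lowest control library, an arrangement found for 22.2% of genes tested, with the opposite one found for 22.8% of genes and for no member. None of the 9 was called in edgeR, DESeq2 or limma, where 3.6% of genes tested were called lower and 3.74% higher in edgeR; 5 members had an unadjusted p under 0.05 in edgeR, as did 37.2% of genes tested. The median log2 fold change of the members was -0.74, beside -0.0033 for all genes tested, a description of the list without a test. In bulk RNA, fewer cells of a type and less RNA per cell cannot be told apart.

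**Figure D2:**
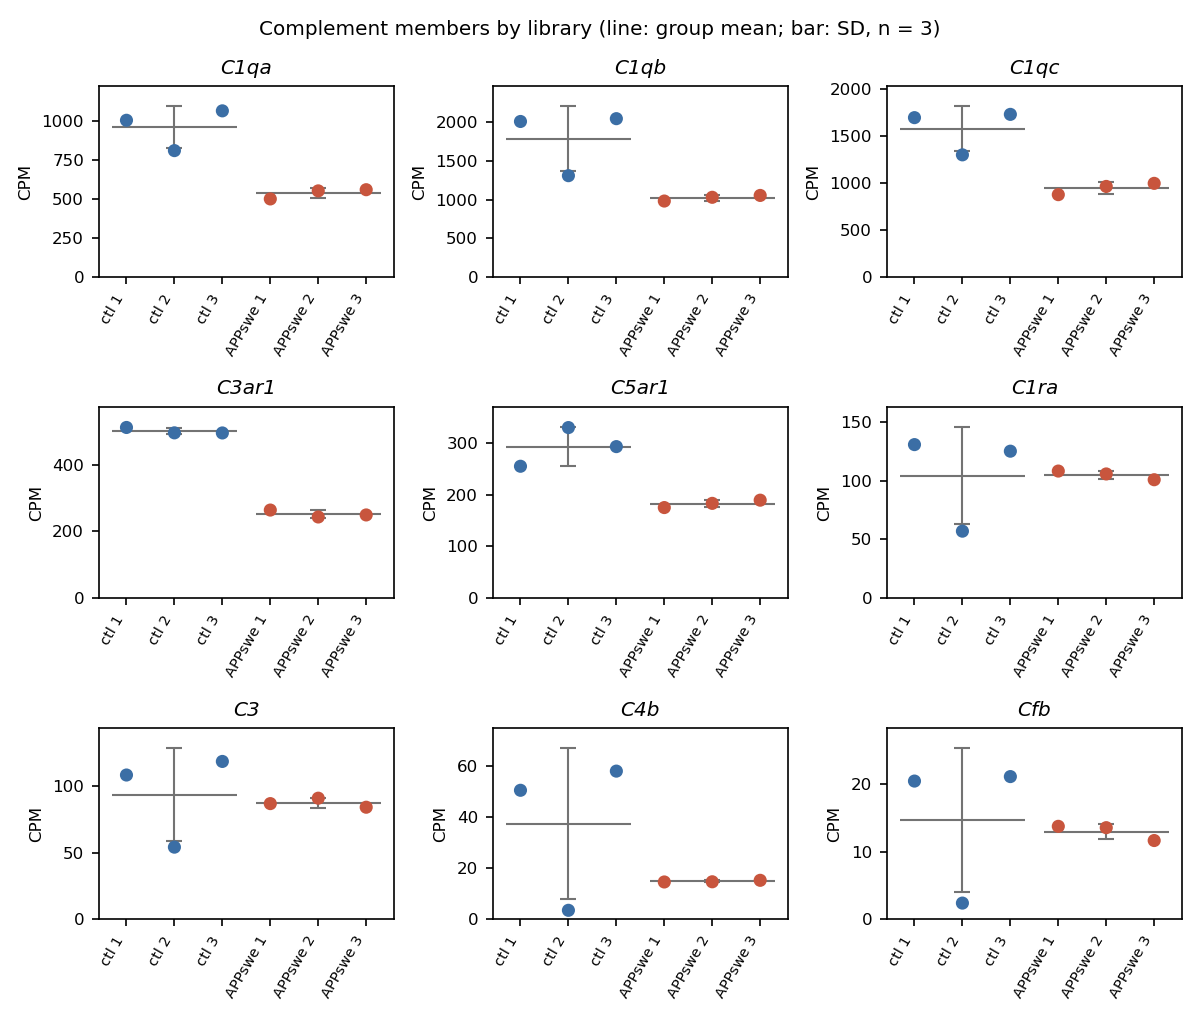
CPM of each member in each of the 6 libraries, control (ctl) in blue and APPswe in red, on axes that start at 0, with grey lines for group means and bars for the SD (n = 3). C1qa, C1qb, C1qc, C3ar1 and C5ar1 are lower in every APPswe library than in every control library, while for C1ra, C3, C4b and Cfb control 2 lies below all APPswe libraries and control 1 and 3 lie above them.

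C1qa, C1qb and C1qc encode the chains A, B and C that assemble into C1q, the recognition molecule of the classical pathway. C1qa (NCBI gene 12259) was at 1004, 809.7 and 1064 CPM in control 1, 2 and 3 and at 500.2, 552 and 559 CPM in APPswe 1, 2 and 3. Control 2 was the lowest control library, and the groups did not overlap. The mean fell from 959 ± 133 CPM to 537 ± 32.2 CPM (SD, n = 3 each), or 1.79-fold (log2 change -0.84, SE 0.12, edgeR adjusted p = 0.00511). C1qb (NCBI gene 12260) had 2009, 1309 and 2045 CPM in the control and 981, 1029.8 and 1054 CPM in the APPswe libraries (log2 change -0.81, SE 0.17, edgeR adjusted p = 0.0199). Here too the groups were apart, and control 2 lay closer to the APPswe libraries than to the other control libraries. C1qc (NCBI gene 12262) was at 1695, 1299 and 1729.95 CPM in control and at 876, 964 and 996 CPM in APPswe libraries (log2 change -0.74, SE 0.13, edgeR adjusted p = 0.00988). Without control 2 the log2 fold changes were -0.94, -0.99 and -0.85 for C1qa, C1qb and C1qc. C1qb no longer passed when any 1 library other than control 2 was left out (edgeR adjusted p between 0.0562 and 0.0866), and C1qc did not pass without APPswe 1 (0.0519) or without APPswe 2 (0.0542), whereas C1qa passed in each of these fits. Over 15 refits with other settings, other tools or a library left out, the adjusted p reached at most 0.0351 for C1qa in edgeR, DESeq2 or limma.

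The proportions of the C1q chains lay close together in all libraries. As a share of the summed FPKM of the C1q genes, C1qa took 21.3%, 23.6% and 21.98% in control 1, 2 and 3 and 21.2%, 21.6% and 21.4% in APPswe 1, 2 and 3. C1qb took 41.5%, 37.2% and 41.1% in control and 40.5%, 39.3% and 39.3% in APPswe libraries, and C1qc took 37.1%, 39.1% and 36.9% in control and 38.3%, 39.0% and 39.4% in APPswe libraries. The genotypes overlapped for C1qa, and for C1qb and C1qc through control 2 alone: in control 1 and 3 the share of C1qb was above, and that of C1qc below, its share in every APPswe library. Control 2 had the lowest share of C1qb and the highest share of C1qa.

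C3ar1, the receptor for C3a, had the smallest spread between control libraries of any member. C3ar1 (NCBI gene 12267) was at 512, 496 and 495 CPM in control 1, 2 and 3 and at 264, 243 and 249 CPM in APPswe 1, 2 and 3, so that every APPswe library was at about the same distance below the control libraries. On the log2 scale the change came to -0.99 (SE 0.07, edgeR adjusted p = 0.00064), just short of the limit for a call, and its fold was 1.99. It reached that limit without control 3 (-1.002) and without APPswe 1 (-1.02). C5ar1 (NCBI gene 12273), the receptor for C5a, had 255, 330.4 and 293 CPM in control and 175, 183 and 189.7 CPM in APPswe libraries. Unlike the C1q chains, C5ar1 was highest in control 2. It fell by 0.68 on the log2 scale (standard error 0.11, edgeR adjusted p = 0.00702) and by 0.58 without control 2, and both receptors passed in each of the 15 refits with other settings or a library left out.

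C1ra, C3, C4b and Cfb, the proteases and the thioester proteins of the cascade, did not pass with all libraries, and in each of them control 2 was the lowest of all 6 libraries. C3 (NCBI gene 12266) was at 109, 54.2 and 119 CPM in control 1, 2 and 3 and at 87.0, 91.0 and 84.2 CPM in APPswe 1, 2 and 3 (log2 change -0.10, SE 0.27, edgeR adjusted p = 0.817). The protease C1ra (NCBI gene 50909) had 131, 57.1 and 125 CPM in control and 108, 106 and 101 CPM in APPswe libraries (log2 change 0.01, SE 0.29, edgeR adjusted p = 0.986). For both, control 1 and 3 lay above and control 2 below the narrow range of the APPswe libraries. C4b (NCBI gene 12268), which is split by the classical and lectin proteases, spread the most between control libraries relative to its mean: 50.6, 3.43 and 58.2 CPM in control against 14.6, 14.6 and 15.2 CPM in APPswe libraries. Control 2 held 6.30% of the mean C4b level of control 1 and 3, and the log2 fold change of -1.34 had a standard error of 0.82 (edgeR adjusted p = 0.28). Cfb (NCBI gene 14962), factor B, was at 20.4, 2.36 and 21.1 CPM in control and at 13.7, 13.5 and 11.6 CPM in APPswe libraries (log2 change -0.17, SE 0.67, edgeR adjusted p = 0.875). Control 2 held 11.4% of the Cfb mean of control 1 and 3, against 44.5% for C1ra and 47.7% for C3.

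Without control 2, with 2 control and 3 APPswe libraries, all 9 members were lower at an adjusted p of at most 0.05, where 25% of the 13753 genes then tested were lower and 23.3% higher. C4b was the 1 member called, with a log2 change of -1.87 (SE 0.09, edgeR adjusted p = 5.84e-08), where 6.58% of genes were called lower and 4.87% higher. In the same fit the log2 fold change was -0.68 for Cfb (edgeR adjusted p = 0.000313), -0.38 for C3 (0.00129) and -0.28 for C1ra (0.0044). Over the 15 refits in edgeR, DESeq2 or limma the adjusted p of C4b lay between 5.84e-08 and 0.739, that of Cfb between 0.000313 and 0.954, that of C3 between 0.00129 and 0.98 and that of C1ra between 0.0044 and 0.994, and only the fit without control 2 passed for any of these 4 genes. Reads of C4b and of its near-identical copy C4a, and likewise of C1ra and C1rb, may have been split or shared in counting, which makes their levels uncertain. C4a was at 0.925 ± 0.280 CPM in control and 1.36 ± 0.629 CPM in APPswe libraries (SD, n = 3 each), and C1rb was under the floor in every library. The FPKM of C3 was not a fixed multiple of its counts, at 18.4, 13.04 and 16.3 FPKM per 1000 counts in control and 17.2, 16.3 and 16.99 in APPswe libraries, so that its FPKM set control 2 further apart than its CPM did.

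Within each name style the genotypes were compared without a test, since the hyphen-named libraries hold 1 APPswe library and the others 1 control library. The log2 ratio of mean CPM, APPswe to control, was -0.86 among hyphen-named and -0.94 among the other libraries for C1qa, and -0.93 and -1.01 for C3ar1. It was -0.76 and -0.97 for C1qb, -0.77 and -0.82 for C1qc, and -0.74 and -0.65 for C5ar1, so that these 5 genes were lower in APPswe libraries within both styles. C4b was at -0.89 and -1.96. C1ra (0.21 and -0.28), C3 (0.10 and -0.44) and Cfb (0.27 and -0.75) differed in sign between the styles, and control 2 is among the hyphen-named libraries.

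**Figure D3:**
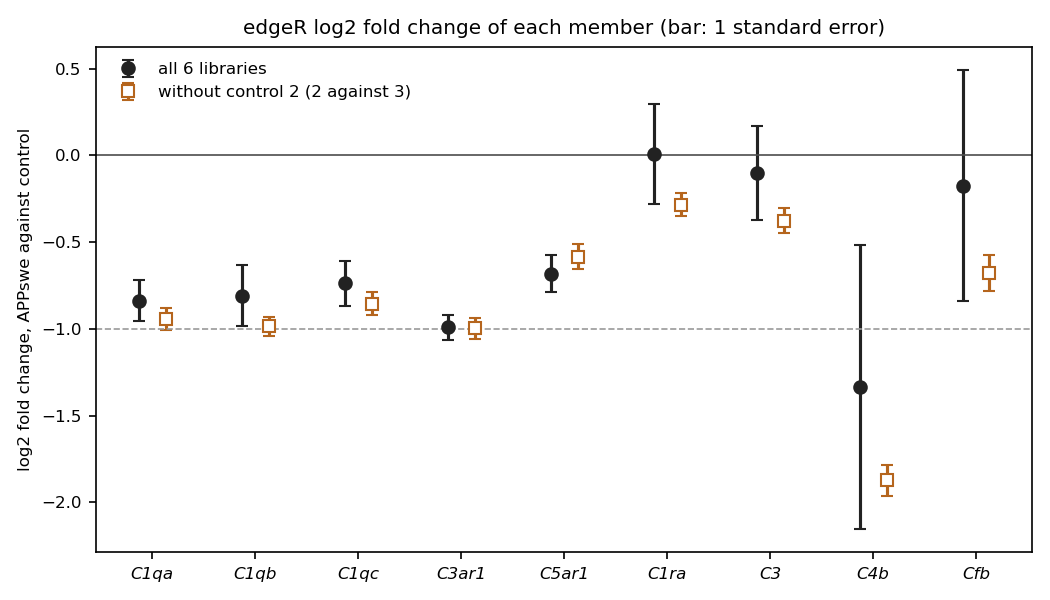
Log2 fold change of APPswe against control for each member from edgeR, with all 6 libraries (filled circles) and without control 2 (open squares, 2 control and 3 APPswe libraries), and bars of 1 standard error. The dashed line marks -1; for C4b, Cfb, C3 and C1ra the bars shrink without control 2 and all 9 values are below 0.

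The levels of the members moved beside those of cell type markers. The C1q chains together had 4708, 3418 and 4840 CPM in control and 2358, 2545 and 2609 CPM in APPswe libraries. Divided by the summed CPM of the 16 macrophage markers, this came to 0.233, 0.218 and 0.223 in control 1, 2 and 3 and to 0.210, 0.212 and 0.215 in APPswe 1, 2 and 3, where the APPswe libraries were lowest. Lyz2 alone made up between 62.3% and 73.9% of the macrophage sum. Over the other 15 markers the C1q ratio was 0.863, 0.579 and 0.853 in control and 0.575, 0.607 and 0.612 in APPswe libraries, so that control 2 lay among the APPswe libraries and control 1 and 3 above them. For C3ar1 the same ratio was 0.0253, 0.0316 and 0.0228 in control and 0.0235, 0.0202 and 0.0205 in APPswe libraries, and for C5ar1 it was 0.0126, 0.0211 and 0.0135 in control and 0.0156, 0.0153 and 0.0156 in APPswe libraries. Both overlapped between genotypes, for C5ar1 through control 2 alone, since control 1 and 3 lay below every APPswe library. Over the 15 markers without Lyz2 neither receptor overlapped: the ratio was 0.0938, 0.0839 and 0.0873 in control and 0.0644, 0.0580 and 0.0584 in APPswe libraries for C3ar1, and 0.0468, 0.0559 and 0.0517 in control and 0.0428, 0.0438 and 0.0445 in APPswe libraries for C5ar1. Of the 16 macrophage markers, all tested, 5 fell and 1 rose, where 12% of all genes tested fell and 10.5% rose. The median log2 fold change of the markers was -0.45. Without control 2 10 fell and 3 rose, where 25% of all genes tested fell and 23.3% rose. Cd163, among the markers that fell in both fits, passed the filter on low counts only through control libraries. The 1 that rose with all libraries was Aif1, the gene of IBA1, at 26.5, 13.1 and 26.3 CPM in control and at 49.3, 51.7 and 48.1 CPM in APPswe libraries (log2 change 1.18, edgeR adjusted p = 0.0205). Lyz2, the enzyme lysozyme of macrophages, was at 14786, 9767 and 16076 CPM in control and at 7144, 7836 and 7875 CPM in APPswe libraries, and no defining macrophage marker was at 0. The macrophage glycoprotein gene Cd68 was at 1129, 1126 and 1192 CPM in control and at 542, 598 and 609 CPM in APPswe libraries and fell (log2 change -0.98, edgeR adjusted p = 0.00093), as did Lyz2 (-0.83, 0.0222). Csf1r, the receptor for the macrophage growth factor CSF1, was at 777, 1361 and 819 CPM in control and at 939, 934 and 937 CPM in APPswe libraries and did not pass (edgeR adjusted p = 0.832), but rose without control 2 (log2 change 0.23, edgeR adjusted p = 0.00556). The part of these markers in the C1q and receptor results was not tested.

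C1ra, C3, C4b and Cfb were set beside the 8 stromal and fibroblast markers, all tested. With all libraries 2 of these markers rose and none fell, where 10.5% of all genes tested rose and 12% fell. Without control 2 2 rose and 4 fell, where 23.3% of all genes tested rose and 25% fell. The most abundant marker was the collagen gene Col3a1, and none was at 0. The summed level of the markers was 4218, 1866 and 4272 CPM in control 1, 2 and 3 and 6423, 6609 and 6539.6 CPM in APPswe 1, 2 and 3. The summed CPM of the 4 members divided by that of the list was 0.0736, 0.0627 and 0.0757 in control and 0.0348, 0.0341 and 0.0324 in APPswe libraries, so that on this ratio control 2 lay near the other control libraries and the groups did not overlap. Col3a1 made up between 49.9% and 60.8% of that sum in control and between 73.8% and 73.96% in APPswe libraries, and itself rose (log2 fold change 1.42). Over the other 7 markers the ratio was 0.147, 0.160 and 0.153 in control and 0.133, 0.131 and 0.125 in APPswe libraries, closer together but again without overlap. Both ratios describe mostly C1ra and C3, which made up most of the summed CPM. In control 2 C1ra was at 57.1 and C3 at 54.2 CPM, against 3.43 CPM for C4b and 2.36 CPM for Cfb. Ratios of C4b or Cfb alone to the list were not computed, so the lack of overlap does not extend to them. Control 2 was the lowest of all libraries for 5 of the 8 markers and the highest control library for the other 3, Pdgfra, Pdgfrb and Lepr. The order of libraries of C4b, with control 2 lowest, control 1 and 3 highest and the APPswe libraries between, was that of 3 of the 8, Dcn, Lum and Cxcl12. The decorin gene Dcn was at 520, 55.7 and 474 CPM in control and 253, 228 and 222 CPM in APPswe libraries. The part of the stromal markers in the results of the 4 members was not tested.

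Other lists also differed between libraries. Their counts stand beside 12% of all genes tested that fell and 10.5% that rose with all libraries. Without control 2 these shares were 25% and 23.3%. In 22.2% of all genes tested every APPswe library was below every control library. The 9 measured interferon response genes summed to 412, 1411 and 401 CPM in control and to 146, 140 and 142 CPM in APPswe libraries, with 7 of 9 falling, or all 9 without control 2, and all 9 lower in every APPswe library than in every control library. For the 8 osteoclast markers the sums were 343, 213 and 327 CPM in control and 659, 658 and 647 CPM in APPswe libraries. Ctsk was the most abundant, and none was at 0 in a whole group. Of the 7 tested 4 rose, or 6 without control 2. Ocstamp and Oscar, among those that rose, passed the filter on low counts only through APPswe libraries, so that a fall could not have been found. Acp5 (log2 change 5.09, edgeR adjusted p = 0.000296) and Ctsk (0.77, 0.0259) passed it in both groups. The skeletal muscle markers summed to 2.19, 11.3 and 3.10 CPM in control and to 165, 158 and 160.0 CPM in APPswe libraries. Acta1 was the most abundant in CPM and Myl1 in FPKM, and Ckm was at 0 in control libraries. All 7 tested rose, but Myog, Ttn, Myl1, Tnni1 and Myh3 passed the filter on low counts only through APPswe libraries. For these a fall could not have been found. Acta1 (log2 change 4.58, edgeR adjusted p = 0.00336) and Tnnt3 (3.86, 0.000296) passed the filter in both groups. Endothelial markers, led by Vwf in mean CPM and by Emcn in FPKM, summed to 228, 81.7 and 242 CPM in control and to 23.9, 23.9 and 25.6 CPM in APPswe libraries, and 2 of 6 fell. Without control 2 all 6 fell: Emcn was at 68.7, 0.112 and 66.0 CPM in control and at 2.75, 1.39 and 1.63 CPM in APPswe libraries. Neutrophil markers stayed between 14.5 and 47.4 CPM in sum, nearly all of it from Csf3r, and neither of the 2 tested passed with all libraries, while Csf3r rose without control 2 (log2 change 0.56, edgeR adjusted p = 0.000239), with S100a9, Elane, Mpo and Retnlg at 0 in control and Ly6g at 0 in APPswe libraries. Dendritic cell markers were led by Zbtb46 and summed to between 1.01 and 3.95 CPM. Zbtb46, the 1 tested, was called higher (log2 change 1.32, edgeR adjusted p = 0.0145), with Flt3, Xcr1 and Siglech at 0 in both groups. Lymphocyte markers, led by Cd79a, summed to at most 0.280 CPM, with Cd3d and Nkg7 at 0 in control libraries. Erythroid markers, led by Hbb-bt, summed to at most 0.112 CPM, with Hba-a1 and Hbb-bs at 0 in control libraries and Alas2 at 0 in both groups. The part of these lists in the complement values was not tested.

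**Figure D4:**
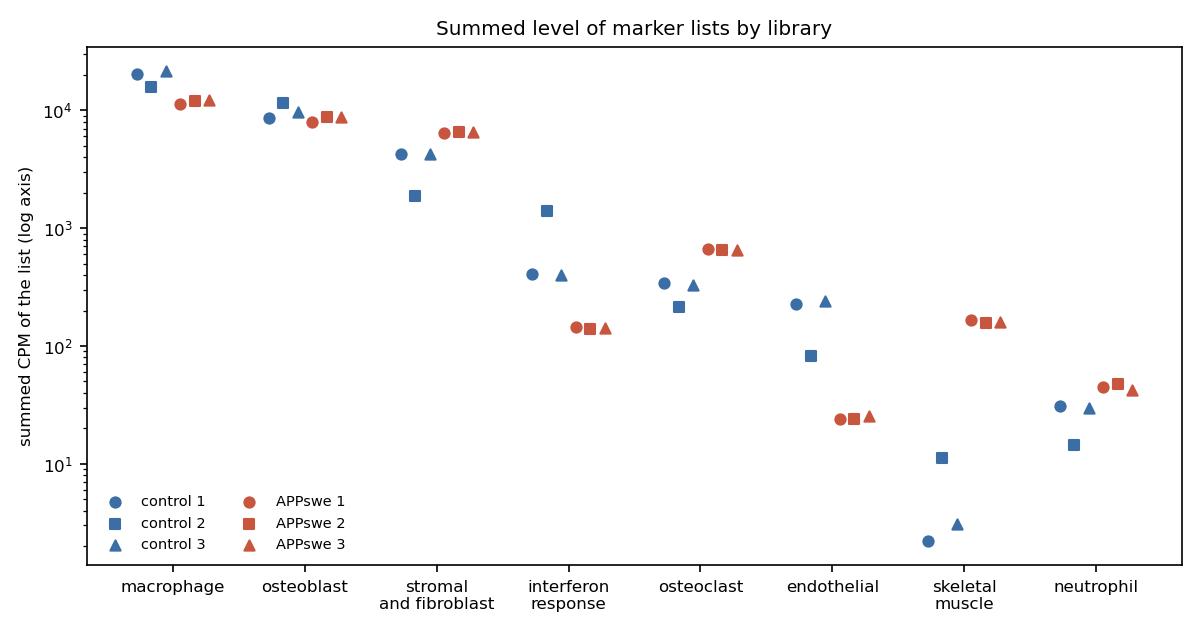
Summed CPM of 8 marker lists in each library on a log axis, control in blue and APPswe in red, with a marker shape for each library number. Macrophage, interferon response and endothelial sums are lower in all APPswe libraries, osteoclast, muscle, stromal and neutrophil sums are higher, and control 2 (blue squares) departs from control 1 and 3 in most lists.

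Of 49 further complement genes listed by pathway step, 46 were in the table and 26 were tested. Of these 26, 8 fell and 1 rose with all libraries, 3 being called lower and 1 higher, and their median log2 fold change was -0.40. Among all genes tested 12% fell and 10.5% rose, with 3.6% called lower and 3.74% higher. Without control 2, 19 of 27 tested fell and 2 rose, and the median was -0.42, where 25% of all genes fell and 23.3% rose. In that fit 6.58% of all genes were called lower and 4.87% higher. Of the listed genes Masp1, Fcna, Cfd, Cd55, Cd59a, Cd59b, Clu and Susd4 were called lower and Cd46 higher. Susd4 and Cfd passed the filter on low counts in that fit only through control libraries, and Cd46 only through APPswe libraries. With all libraries, where Cd46 was the gene that rose, its control libraries alone did not meet the filter either. The direction of these calls was therefore fixed by the filter, and the counts above include them. The listed genes that were not tested included those of the terminal pathway other than C8g, which sat at a mean of 0.834 CPM in control and 1.01 CPM in APPswe libraries and did not pass (edgeR adjusted p = 0.662). C6, C7, C8a, C8b, C9 and Hc, the gene of C5, had at most 0.169 CPM in any library.

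In the lectin pathway, which starts from sugar-binding proteins, all 3 genes tested fell. The protease gene Masp1 was at 203, 292 and 227 CPM in control 1, 2 and 3 and at 77.3, 85.8 and 77.2 CPM in APPswe 1, 2 and 3 (log2 change -1.59, SE 0.14, edgeR adjusted p = 0.00114). No APPswe library reached the lowest control library, and unlike C1ra it was highest in control 2. The ficolin gene Fcna, a recognition molecule made by macrophages, fell from 17.0 ± 3.84 to 6.58 ± 0.125 CPM (SD, n = 3 each, log2 change -1.36, edgeR adjusted p = 0.00397). Colec12, a scavenger receptor with a collectin domain and the most abundant gene of the list, fell from 313 ± 49.1 to 212 ± 19.6 CPM (SD, n = 3 each; edgeR adjusted p = 0.0289). Of the 4 other classical pathway genes tested none passed with all libraries and 2 fell without control 2. The protease gene C1s1, the most abundant, passed in neither fit and was at 186, 33.1 and 177 CPM in control and at 174, 166 and 160.0 CPM in APPswe libraries, again lowest in control 2. In the alternative pathway the properdin gene Cfp, which stabilises its convertase, had 249, 183 and 260 CPM in control and 163, 163 and 179.7 CPM in APPswe libraries and did not pass (edgeR adjusted p = 0.0611), although the groups did not overlap. Without control 2 Cfp fell (log2 change -0.59, edgeR adjusted p = 3.73e-05).

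Among the regulators, Cd59a fell and Cd46 rose out of 8 tested, and without control 2 7 fell and 1 rose out of 9. The latter counts include Susd4 and Cd46, which passed the filter in that fit through a single genotype. The rise of Cd46 with all libraries has the same limit, since its control libraries alone (15, 13 and 9 counts) did not meet the filter. Cd59a encodes the membrane protein that blocks assembly of the lytic complex, and it went from 25.9 ± 9.26 to 9.27 ± 0.437 CPM (SD, n = 3 each, log2 change -1.48, edgeR adjusted p = 0.0126). Cd46, a cofactor for cleavage of C3b, was low at 0.866, 0.730 and 0.508 CPM in control and 1.74, 1.56 and 2.02 CPM in APPswe libraries (log2 change 1.33, edgeR adjusted p = 0.0197), and it was not called without control 3 or without any single APPswe library. Serping1, the C1 inhibitor and the most abundant regulator, was at 336, 34.3 and 321 CPM in control and at 186, 185 and 197 CPM in APPswe libraries, the order of libraries seen for C4b and Cfb; its log2 fold change was -0.28 with all libraries (edgeR adjusted p = 0.803) and -0.79 without control 2 (2.18e-06). Of the other receptors and binding proteins, 4 of 8 tested fell (5 without control 2), Itgam, Itgb2, Calr and Lrp1, with log2 fold changes between -0.62 and -0.26. Itgam and Itgb2 encode the chains of complement receptor CR3, and Lrp1, the most abundant of the list in CPM (Calr in FPKM), went from 2070 ± 421 to 1386 ± 128 CPM (SD, n = 3 each; edgeR adjusted p = 0.0418). C5ar2, the other C5a receptor, was at 7.04, 10.4 and 6.71 CPM in control and at 11.04, 11.1 and 10.4 CPM in APPswe libraries and did not pass (edgeR adjusted p = 0.158), but rose without control 2 (log2 change 0.66, edgeR adjusted p = 0.000807).

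**Figure D5:**
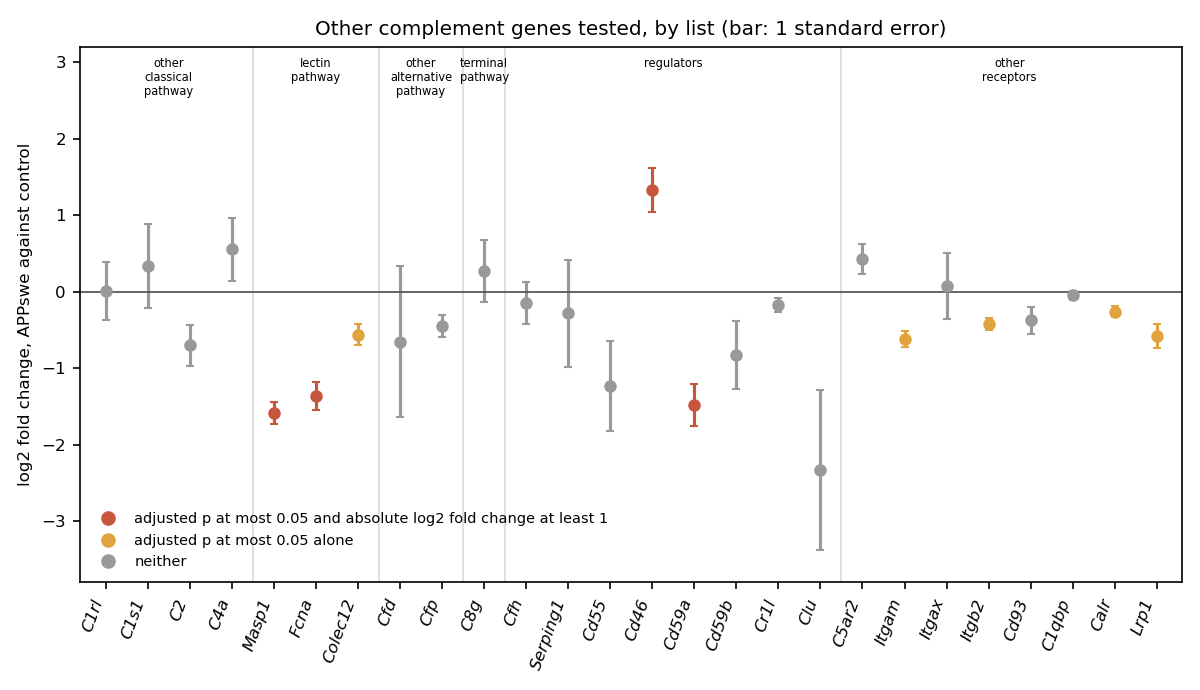
Log2 fold change of APPswe against control from edgeR for the 26 other complement genes tested, ordered by list, with bars of 1 standard error. Masp1, Fcna and Cd59a are called lower and Cd46 higher (red), and 5 further genes fell at an adjusted p alone (orange). The control libraries of Cd46 alone did not meet the filter on low counts.

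For each member that fell, the genes most alike over the 6 libraries were found as the 3 with the smallest root mean square difference of centred log2 CPM among 12213 genes. C1qa was closest to Ctsz (0.028), followed by Mocos (0.039) and Pld3 (0.049). C1qb was closest to Inka2 (0.035), Lyz2 (0.036) and Gnpda1 (0.037), and C1qc to Atp6v0a1 (0.020), Neu1 (0.030) and Tmem38b (0.038). C3ar1 was closest to Nostrin (0.039) and Fam107b (0.051). C5ar1 was closest to Por (0.029), Ppp1r13b (0.040) and Slc38a7 (0.040), and Por, like C5ar1, was highest in control 2 at 222 CPM.

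The 9 members lie on 4 chromosomes of the RefSeq assembly GRCm38.p6, whose build the submitters' processing notes name. C1qb (chr4:136880126-136886200), C1qc (chr4:136889801-136892936) and C1qa (chr4:136895916-136898844) are adjacent within 18719 bases, with 3600 and 2979 bases between them and no other annotated gene inside. The nearest tested genes on either side, Ephb2 and Zbtb40, named for their position, had log2 fold changes of 1.26 (edgeR adjusted p = 0.0034) and -0.19 (0.297). C4b (chr17:34728139-34743902) and Cfb (chr17:34856374-34862514) share a region of chromosome 17 with 112471 bases between them, and C2 begins 87 bases past Cfb. C2 was at 31.2, 15.7 and 33.3 CPM in control and at 15.3, 16.9 and 17.1 CPM in APPswe libraries and did not pass with all libraries (edgeR adjusted p = 0.11), but fell without control 2 (log2 change -0.97, edgeR adjusted p = 7.89e-06). C3 (chr17:57203967-57228136) lies elsewhere on that chromosome, C3ar1 (chr6:122847140-122856157) and C1ra (chr6:124512621-124523440) are on chromosome 6, and C5ar1 (chr7:16246743-16259540) is on chromosome 7. The strand setting of the counting is not given in the sources used here; Mir6978 within C3 and Mir6972 within Cfb are the annotated genes that overlap a member.

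RefSeq promoters were found for 6 of the 9 members, and those of the 4 members with a promoter that fell are shown because these genes moved together between the genotypes. Each is 300 bases long around the start of the gene, on build GRCm38.p6 and on the minus strand, written 5′ to 3′: C1qb at chr4:136886151-136886450, C1qc at chr4:136892865-136893164, C3ar1 at chr6:122856108-122856407 and C5ar1 at chr7:16259289-16259588. Capitals mark exact matches on either strand to GAAANNGAA (core of the interferon-stimulated response element), TTCNNNGAA (GAS, the gamma-activated sequence), GAGGAA (core of the PU.1 site of myeloid genes) or GGGANTTTC (part of the kappa B site).
C1qb: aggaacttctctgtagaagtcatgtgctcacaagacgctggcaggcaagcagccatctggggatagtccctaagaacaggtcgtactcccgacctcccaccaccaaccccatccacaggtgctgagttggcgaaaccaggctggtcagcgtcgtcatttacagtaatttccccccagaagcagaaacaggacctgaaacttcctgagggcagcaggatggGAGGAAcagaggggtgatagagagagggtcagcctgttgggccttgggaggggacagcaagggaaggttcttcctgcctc
C1qc: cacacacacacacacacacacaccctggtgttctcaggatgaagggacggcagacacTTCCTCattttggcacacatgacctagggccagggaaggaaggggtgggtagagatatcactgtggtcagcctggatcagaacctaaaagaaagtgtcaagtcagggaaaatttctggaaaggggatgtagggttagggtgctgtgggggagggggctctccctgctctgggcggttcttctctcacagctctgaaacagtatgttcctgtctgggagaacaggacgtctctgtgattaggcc
C3ar1: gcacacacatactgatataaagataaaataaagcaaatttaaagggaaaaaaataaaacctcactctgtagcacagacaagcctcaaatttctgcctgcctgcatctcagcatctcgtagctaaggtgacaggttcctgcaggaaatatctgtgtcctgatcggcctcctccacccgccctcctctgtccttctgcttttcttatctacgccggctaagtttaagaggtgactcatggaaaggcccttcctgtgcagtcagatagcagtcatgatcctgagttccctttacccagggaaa
C5ar1: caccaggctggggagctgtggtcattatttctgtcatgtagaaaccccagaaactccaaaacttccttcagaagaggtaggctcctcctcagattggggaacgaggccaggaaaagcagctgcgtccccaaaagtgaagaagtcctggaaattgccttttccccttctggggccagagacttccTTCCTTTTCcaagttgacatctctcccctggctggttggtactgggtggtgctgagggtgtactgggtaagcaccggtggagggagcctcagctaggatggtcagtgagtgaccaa

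The PU.1 core occurred once in the promoters of C1qb and C1qc, beginning 30 and 193 bases before the gene start, and in that of C1ra, and it occurs in 28.3% of the 32851 promoters of this length in the table. The C5ar1 promoter held 1 match to the interferon-stimulated core, 66 bases before the start, where 8.56% of promoters hold one, and the C1ra promoter held 1 match to GAS, found in 8.3% of promoters. None of the 6 promoters held the kappa B letters, found in 1.11% of promoters, and the promoters of C3ar1 and C3 held none of the 4 motifs. The matches did not overlap each other, and a match is a description of the letters only. Promoters of C1qa, C4b and Cfb were not analysed here.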

How the data were processed

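RNA of sorted tdTomato-positive cells was sequenced on the DNBseq platform, per the study's methods. The deposited read counts per gene are the authors' and are not normalized; the FPKM values were computed and rounded by the authors, and their blank cells (397 genes in hyphen-named and 716 in the other libraries, no member among them) were read as 0. The build is GRCm38 per the submitters' processing notes; the aligner and counter are not given in the sources used here. The deposited log2 fold changes and p-values of the authors' own comparison were not used.

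The fit used edgeR 4.0.16 under R 4.3.3 (TMM, filterByExpr, quasi-likelihood test without covariate). Alternatives were DESeq2 1.42.0, its size factors, no TMM, no filter or at least 10 counts in every library, the replicate number or the library name style as a term, each library left out, and limma 3.58.1 on log2(FPKM + 1) or log2(FPKM + 0.1). The tests were checked on simulated counts. The members and lists were chosen with earlier results of these data known. Genes named are the members, further complement genes called or most abundant in their list, the most abundant marker of each list and those at 0, and the 3 genes most like each member that passed, among genes with mean log2 CPM of at least 1; others (Ibsp, Dmp1, Col1a1, Sp7, Runx2, Csf1r, Cd68, Aif1, Dcn, Lum, Cxcl12, Pdgfra, Pdgfrb, Lepr, Emcn, Myl1, C2, Itgam, Itgb2, Calr, C5ar2, the neighbours and the copies) were named after their values were seen. A few genes that this rule names are not reported here. Counts differed beyond sampling noise between any pair of libraries, with a chi-square per degree of freedom of 1.57 for APPswe 2 and 3, 5.945 for control 1 and 3, 7.10 and 7.60 for the other APPswe pairs and 72.9 to 104.9 for the rest, which does not show that they are separate samples. Ratios without Lyz2 or Col3a1 were added after the values were seen.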

Additional observations from a re-analysis of the deposited data

How the results depend on the processing

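Leaving out 1 library at a time gave 0 to 1 members called lower (C4b without control 2, C3ar1 without control 3 or APPswe 1), 0 to 1 further complement genes called higher and 2 to 8 lower, and 281 to 670 genes called higher and 230 to 905 lower among all genes. By adjusted p alone 3 to 9 members were lower with a library left out. With all libraries 5 members and 8 further complement genes were lower, with 1414 genes higher and 1622 lower. With at least 10 counts in every library, no further complement gene (0) and 322 genes were called higher, and on log2(FPKM + 1) these were 0 and 316, with 185 genes called lower. On log2(FPKM + 0.1) 556 genes were called higher and 313 lower, against 504 and 486. The replicate numbers did not pair the libraries (correlations 0.0736, -0.0364 and 0.158 for numbers 1, 2 and 3), and with the replicate block 0 further complement genes were called higher and the log2 fold change of Cfb was 0.20. That of Cfb was also above 0 on FPKM (0.21 and 0.38) and without control 1 (0.14) or control 3 (0.18), and so was that of C3 on FPKM (0.084 and 0.093) and without control 1 (0.01) or control 3 (0.10). Without control 2 that of C3 was -0.38 and that of Cfb -0.68. That of C1ra was -0.036 with the name style as a term, -0.28 without control 2 and -0.01 without APPswe 1. That of C4b was below 0 throughout, at -0.51 on log2(FPKM + 0.1), -0.59 on log2(FPKM + 1), -0.79 with the replicate block and between -1.87 (without control 2) and -0.87 (without control 3) with a library left out. The cause was not tested. C1qa, C3ar1 and C5ar1 passed in all 15 alternatives, C1qb in 10 and C1qc in 13.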
